A study of Mus musculus with 24 samples.

Results

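The livers of mice given extracellular vesicles (EVs) labelled MCF10A/miR-122 or MDA-MB-231 were set against the livers of mice given MCF10A EVs or saline. They were chosen by their treatment label and make up 12 of the 24 livers of the study, 6 per label, and the other 12 livers are the 6 labelled MCF10A EV and the 6 labelled PBS. All mice were female NSG mice, an immunodeficient strain that lacks mature lymphocytes, and the labels give an age of 8 weeks. Over 5 weeks each had 2 tail-vein injections a week, of about 10 µg of EVs in the EV groups and of phosphate-buffered saline alone in the PBS group. The liver was collected 2 days after the last one. MCF10A is a non-tumorigenic human breast epithelial line, MCF10A/miR-122 is that line made to produce more of the microRNA miR-122, and MDA-MB-231 is a human breast cancer line. MCF10A EV libraries also carry the name of a retroviral vector, pBABE. The miR-122 content of the EVs and of the livers was not analysed here, since the libraries hold mRNA.

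EVs are membrane particles that cells release and that carry proteins and RNA, microRNAs among them, to other cells. miR-122 is the most abundant microRNA of hepatocytes themselves, where it represses many mRNAs and is known for its part in cholesterol and glucose metabolism. The liver makes glucose between meals under glucagon, glucocorticoids and low insulin, and a clock in each hepatocyte, built on the transcription factors CLOCK, NPAS2 and ARNTL (also called BMAL1) and their PER and CRY repressors, times much of this work.

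Before any result, 2 properties of the libraries matter. The library numbers place all 12 MCF10A/miR-122 and MDA-MB-231 EV libraries last and all 12 MCF10A EV and PBS libraries first, so that treatment and library set cannot be told apart in any comparison. The sets are therefore called the last 12 and the first 12 libraries. For the 6 libraries labelled MCF10A/miR-122 EV the library names carry the name of MDA-MB-231, and for the 6 labelled MDA-MB-231 EV they carry that of miR-122, so 12 library names go against their labels. The comparison of 12 with 12 is the same under either reading, and single groups are called by their labels. Totals were 26.8 to 33.7 M counts in the last 12 libraries and 21.3 to 29.3 M counts in the first 12. The first principal component held 23.01% of the variance and separated the sets. The summed level of 20 hepatocyte markers overlapped among the groups and had its lowest median in PBS livers. In CPM (counts scaled to a common library size) it was 195485 to 234738 (median 209533) in the MCF10A/miR-122 EV livers. It was 209295 to 223273 CPM (median 211168) in the MDA-MB-231 EV livers and 181083 to 226952 CPM (median 212715) in the MCF10A EV livers. PBS livers had 180975 to 213207 CPM (median 186740).

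Of 13773 genes tested, 3401 (24.7%) differed between the last 12 and first 12 libraries at an adjusted p under 0.05. Of these, 1579 (11.5%) were higher and 1822 (13.2%) lower in the last 12. Most differences were small: 221 reached a fold of 2, of which 80 were higher and 141 lower. A stricter reading asked that each of the last groups differ from each of the first groups in the same direction, and 433 genes (3.14%) met it, 139 higher (1.01%) and 294 lower (2.13%). In 128 genes (0.929%) the 12 livers of one set lay wholly above or below the other set, 25 higher (0.182%) and 103 lower (0.748%). Within the sets fewer genes differed, 35 (0.254%) between the MCF10A/miR-122 and MDA-MB-231 EV groups and 147 (1.07%) between MCF10A EV and PBS.

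Pairs that share no library gave overlapping calls. In fits of 12 libraries each, MCF10A/miR-122 EV differed from PBS in 1680 genes (12.2%) and MDA-MB-231 EV from MCF10A EV in 1258 genes (9.13%). They shared 534 genes, and 530 of these had the same direction, 183 higher and 347 lower, which is 31.5% of the first list and 42.1% of the second. With the pairs crossed, MCF10A/miR-122 EV against MCF10A EV gave 1539 genes (11.2%) and MDA-MB-231 EV against PBS gave 1909 (13.9%). They shared 559, of which 543 had the same direction, 35.3% of the first list and 28.4% of the second. Both pairings set last libraries against first libraries.

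Counts over gene lists are set beside these shares over all genes, 24.7% called, 11.5% higher and 13.2% lower, and no test compares a list with the rest. Each group was also left out in turn. Over all genes this gave 1954 calls without MCF10A/miR-122 EV, 2444 without MDA-MB-231 EV, 2694 without MCF10A EV and 2124 without PBS, so fewer calls in a list are read beside these.

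**Figure D1:**
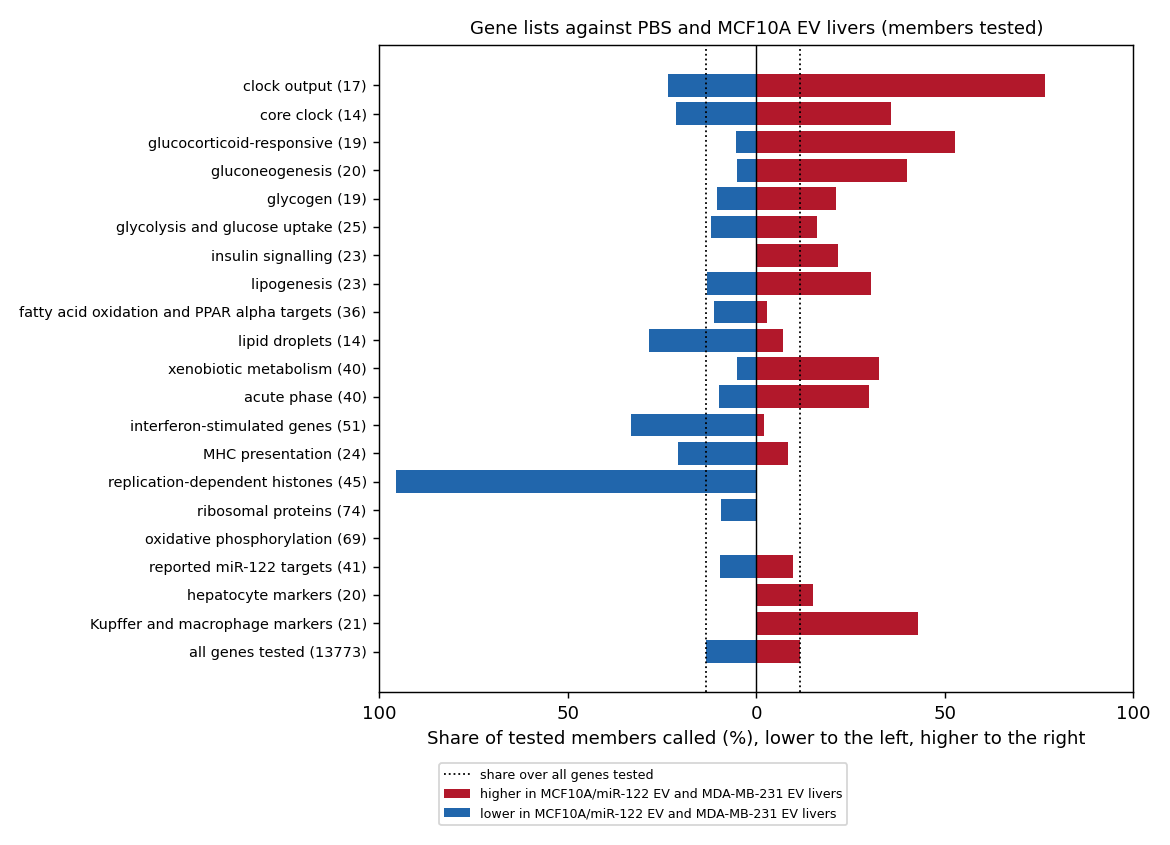
Share of the tested members of each gene list that was called (adjusted p under 0.05), higher in the MCF10A/miR-122 and MDA-MB-231 EV livers to the right and lower to the left, in percent, with the number of members tested in brackets. Dotted lines mark the shares over all genes, 11.5% higher and 13.2% lower. Clock output genes lead on the right and replication-dependent histone genes on the left. The lists were chosen with earlier results of these data known.

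The clock output list was chosen, like the others, with earlier results of these data known, so its share is no independent evidence. Of its 20 members 17 were tested, and beside 24.7% of all genes, all 17 were called. Of these, 13 rose and 4 fell, with a median log2 fold change (log2FC, last 12 minus first 12, given with its standard error) of 0.81 beside 0.0027 over all genes, and of 14 core clock genes (57.1% called) 5 rose and 3 fell. Part of this count rested on the MCF10A EV livers: without them 9 output genes were higher and 1 lower, and 2 core clock genes were higher and 2 lower. Without the MCF10A/miR-122 EV livers 11 output genes were higher and 1 lower. The activator genes Arntl and Npas2 fell, and most of the repressor genes rose. Arntl, the obligate activator, had 1.33 to 4.61 CPM (median 3.33) in the last 12, against 4.79 to 30.2 CPM (median 15.6) in the first 12 (log2FC -2.29 ± 0.28, adjusted p = 1.91e-06). The sets did not overlap. Within the first 12, MCF10A EV livers had 13.05 to 30.2 CPM and PBS livers 4.79 to 29.6 CPM. PBS replicates 2, 3, 4 and 6 had 4.79 to 6.28 CPM, only just above the last 12. MCF10A EV and PBS did not differ at the threshold (adjusted p = 0.241). Npas2, which can stand in for CLOCK, had 0.09 to 0.473 CPM (median 0.257) in the last 12, against 0.399 to 12.4 CPM (median 2.46) in the first 12 (log2FC -3.86 ± 0.56, adjusted p = 2.4e-05). PBS replicate 5 lay at the upper end of that range, and its omission gave a log2FC of -3.05. MCF10A EV livers had 1.72 to 12.1 CPM of Npas2. PBS replicates 2, 3, 4 and 6 had 0.399 to 0.626 CPM, and PBS replicates 1 and 5 had 2.45 and 12.4 CPM. MCF10A EV and PBS did not differ at the threshold for Npas2 (adjusted p = 0.459). Clock itself differed little (log2FC -0.36 ± 0.12, adjusted p = 0.0318), and its call ended without any one of PBS replicates 1, 5 and 6, MCF10A EV replicate 3, MCF10A/miR-122 EV replicates 4, 5 and 6 and MDA-MB-231 EV replicates 4 and 5, where the log2FC was -0.35 to -0.30.

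Among the repressors, Per1 had 49.8 to 94.8 CPM (median 64.6) in the last 12, against 3.56 to 39.8 CPM (median 16.97) in the first 12 (log2FC 1.82 ± 0.29, adjusted p = 6.64e-05), again with no overlap. Per2 had 22.7 to 106 CPM (median 40.7) in the last 12, against 8.56 to 26.3 CPM (median 16.9) in the first 12 (log2FC 1.44 ± 0.20, adjusted p = 1.69e-05), and the sets met only in the lowest of the last libraries. Per3, Cry2 and Nr1d2, which encodes the repressor REV-ERB beta, rose as well, with log2FC values of 1.30, 0.39 and 0.67. These 3 rested on the MCF10A EV livers, since with that group left out none passed the test (adjusted p = 0.623 for Per3, 0.551 for Cry2 and 0.09 for Nr1d2). Cry2 did not pass without the MCF10A/miR-122 EV livers either (log2FC 0.26, adjusted p = 0.0817). Cry1 and Nr1d1 did not pass the test in the 12 against 12 comparison (log2FC 0.07, adjusted p = 0.792 and 0.20, adjusted p = 0.196). Nr1d1 passed with the MCF10A/miR-122 EV group left out (log2FC 0.47, adjusted p = 0.00975) and had a log2FC of -0.075 with the MDA-MB-231 EV group left out.

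The steepest rises of the output genes were in Gm129, now named Ciart, a repressor of the CLOCK and ARNTL pair, and in Usp2, a deubiquitinase gene of the hepatic clock. Gm129 had 10.3 to 51.2 CPM (median 18.9) in the last 12, against 0.655 to 10.1 CPM (median 2.04) in the first 12 (log2FC 2.999 ± 0.32, adjusted p = 2.26e-07). No liver of the last 12 was as low as any of the first 12. Of its 32-base words, 20.3% also occur in another gene, so part of its counts may belong elsewhere. Usp2 had 13.97 to 66.7 CPM (median 28.99) in the last 12, against 2.13 to 17.7 CPM (median 3.93) in the first 12 (log2FC 2.44 ± 0.25, adjusted p = 1.07e-07). Its MCF10A/miR-122 EV livers were the highest, at 28.99 to 66.7 CPM (median 41.7), and its MDA-MB-231 EV livers had 13.97 to 29.00 CPM (median 17.3), a difference within the set that did not pass the test (adjusted p = 0.132). Dbp, a transcription factor gene named here after its values were seen, had 71.7 to 149 CPM (median 90.1) in the last 12, against 2.2 to 118 CPM (median 22.3) in the first 12 (log2FC 1.75 ± 0.36, adjusted p = 0.00087). It was far lower in MCF10A EV livers, at 2.2 to 23.9 CPM (median 12.9), than in PBS livers, at 3.57 to 118 CPM (median 77.00), and without the MCF10A EV group its difference did not pass (log2FC 0.53, adjusted p = 0.357).

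**Figure D2:**
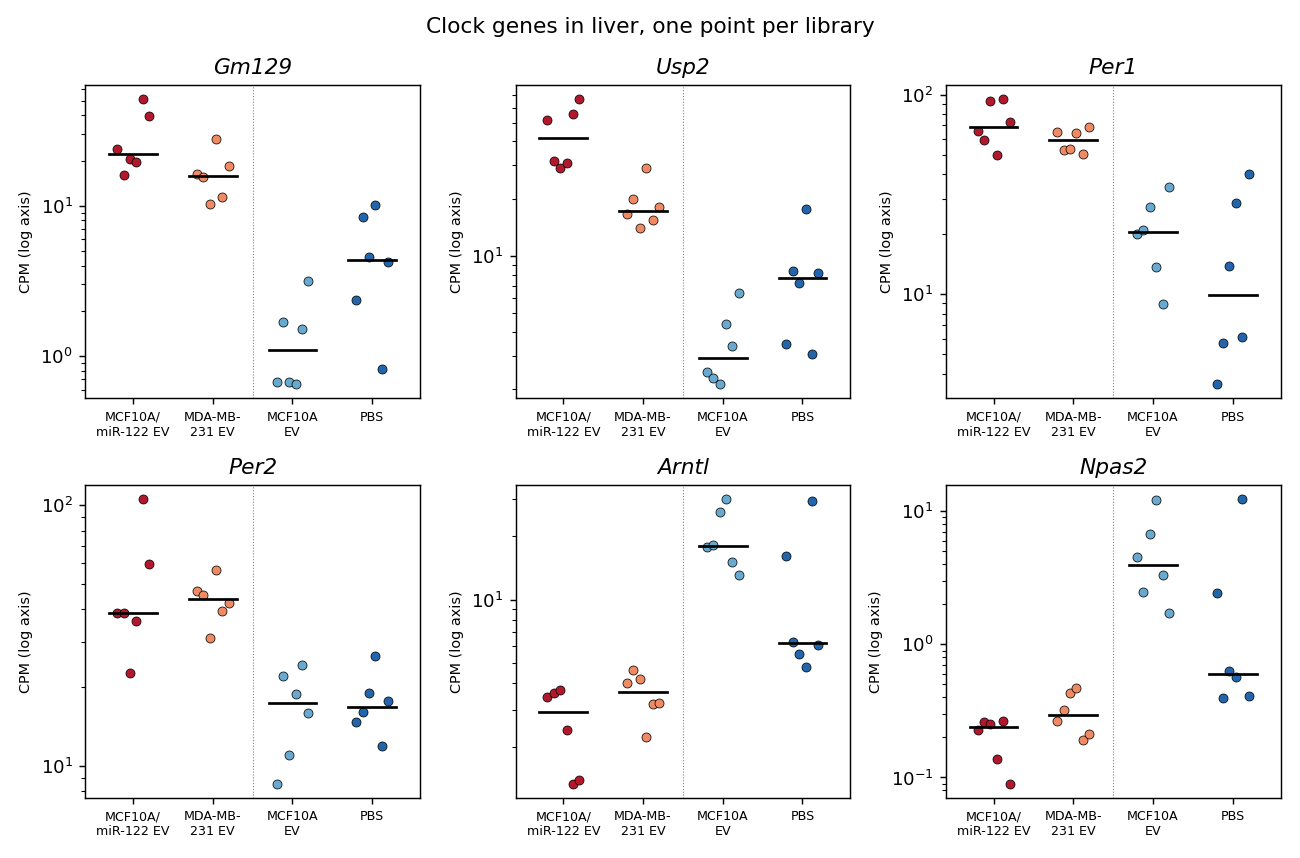
CPM on a log axis of 6 clock genes in every library, by group, MCF10A/miR-122 EV, MDA-MB-231 EV, MCF10A EV and PBS from left to right; points are livers, bars are group medians and the dotted line parts the last 12 from the first 12 libraries. Gm129 and Per1 lie wholly higher and Arntl wholly lower in the last 12.

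The spread among livers was described over each set of 12, which spans a pair of treatment groups, and was not tested. The standard deviation of log2 CPM was smaller in the last 12 than in the first 12 for 15 of 17 output genes (medians 0.31 and 0.61), against 53.1% of all genes tested (medians 0.21 and 0.21). It was smaller for 10 of 14 core clock genes (medians 0.35 and 0.52), 13 of 19 glucocorticoid-responsive genes (medians 0.31 and 0.72) and 10 of 20 gluconeogenesis genes (medians 0.20 and 0.26). MCF10A EV and PBS livers differ in level for genes such as Dbp, which adds to the spread of the first 12. The sources used here give neither the time of day at which livers were taken nor the feeding state.

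Promoters of 3 clock genes that rose and of Arntl, which fell, are printed to show where the E-box, the letters CACGTG that CLOCK and ARNTL bind, stands and where it does not. Each line gives the 300 bases from 250 before to 50 after the first start listed by RefSeq, build GRCm38.p6, 5′ to 3′ on the gene's strand, with every E-box in capitals.
Gm129 (Ciart), chr3:95882179-95882478, minus strand: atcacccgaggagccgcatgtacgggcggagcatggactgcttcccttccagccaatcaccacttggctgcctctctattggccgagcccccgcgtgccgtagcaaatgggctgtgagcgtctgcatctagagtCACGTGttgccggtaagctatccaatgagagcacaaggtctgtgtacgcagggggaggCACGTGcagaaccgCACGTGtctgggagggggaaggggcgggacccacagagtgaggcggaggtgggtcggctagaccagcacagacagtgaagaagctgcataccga
Per1, chr11:69098699-69098998, plus strand: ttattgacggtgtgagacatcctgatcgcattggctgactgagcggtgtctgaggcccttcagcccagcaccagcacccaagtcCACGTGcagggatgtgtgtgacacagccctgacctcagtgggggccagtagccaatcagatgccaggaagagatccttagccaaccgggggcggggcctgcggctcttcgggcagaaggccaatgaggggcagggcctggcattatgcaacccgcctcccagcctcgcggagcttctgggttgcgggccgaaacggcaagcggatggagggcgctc
Usp2, chr9:44084670-44084969, plus strand: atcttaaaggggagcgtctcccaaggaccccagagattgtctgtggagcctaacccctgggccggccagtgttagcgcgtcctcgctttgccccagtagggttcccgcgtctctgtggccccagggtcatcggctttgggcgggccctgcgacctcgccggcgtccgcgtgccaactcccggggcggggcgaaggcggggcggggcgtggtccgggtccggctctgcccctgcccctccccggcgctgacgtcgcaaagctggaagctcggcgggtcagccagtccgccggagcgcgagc
Arntl, chr7:113207215-113207514, plus strand: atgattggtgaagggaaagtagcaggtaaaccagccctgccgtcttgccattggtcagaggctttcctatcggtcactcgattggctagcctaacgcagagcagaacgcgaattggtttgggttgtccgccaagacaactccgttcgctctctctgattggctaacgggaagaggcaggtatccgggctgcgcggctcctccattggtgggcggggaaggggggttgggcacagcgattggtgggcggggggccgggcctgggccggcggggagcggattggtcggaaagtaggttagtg

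Gm129 held 3 E-boxes, Per1 held 1, and Usp2 and Arntl held none in this window. Of the other clock genes described that have a promoter in the table, Cry1 held 1 and Npas2, Clock, Per3, Cry2, Nr1d1, Nr1d2 and Dbp held none, so genes that rose stand on both sides. The E-box reads the same on both strands. It was in 9.9% of the 10807 promoters found for genes tested, in 11.3% of 1237 promoters of genes that rose and in 8.36% of 1423 promoters of genes that fell. Among genes called in all 4 pairs it was in 10 of 117 promoters of those higher (8.55%) and 20 of 207 of those lower (9.66%). With no overlap it was in 5 of 22 of those higher (22.7%) and 8 of 72 of those lower (11.1%). The forkhead letters TGTTTAC, searched on both strands and sharing no overlap with the E-box, were in 2.64% of all promoters, 2.02% of those of genes that rose and 3.09% of those of genes that fell. No test was run on these shares, and a match is a stretch of letters, not a measured binding site.

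Several genes of glucose handling rose. Of 20 gluconeogenesis genes tested, 8 rose and 1 fell (45% called, median log2FC 0.11), and of 19 glycogen genes 4 rose and 2 fell (31.6% called). Over all genes 24.7% were called, 11.5% higher and 13.2% lower. The gluconeogenesis count was 3 higher with the PBS group left out and 4 higher with the MCF10A/miR-122 EV group left out. Ppp1r3g is a subunit that brings a phosphatase to glycogen and favours glycogen synthesis. Its rise was the largest among genes called without overlap, above an average log2 CPM of 1 and without the symbol of a predicted locus. Gm129, left out by its symbol alone, rose more (log2FC 2.999). Ppp1r3g had 17.9 to 128 CPM (median 23.7) in the last 12, against 0.646 to 9.94 CPM (median 3.82) in the first 12 (log2FC 2.88 ± 0.41, adjusted p = 1.54e-05). Even without the highest liver, MCF10A/miR-122 EV replicate 3, the log2FC was 2.52. Tat, tyrosine aminotransferase and a classic target of glucocorticoids, had 1901 to 3824 CPM (median 2619.7) in the last 12, against 497 to 1673 CPM (median 1176) in the first 12 (log2FC 1.26 ± 0.17, adjusted p = 7.33e-06), also with no overlap.

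Pck1, which encodes the cytosolic enzyme that commits carbon to gluconeogenesis, had 3539.8 to 5647 CPM (median 3882) in the last 12, against 785 to 3981 CPM (median 2250.0) in the first 12 (log2FC 0.95 ± 0.19, adjusted p = 0.000896). Its sets overlapped, and against MCF10A EV alone the difference fell just short of the threshold (log2FC 0.61, adjusted p = 0.051). Slc37a4, the glucose-6-phosphate transporter gene, had 153 to 228 CPM (median 182) in the last 12, against 85.2 to 165 CPM (median 145) in the first 12 (log2FC 0.43 ± 0.08, adjusted p = 0.000404). Gpt2, an alanine aminotransferase gene, rose (log2FC 0.51, adjusted p = 0.000749), as did Ppargc1a, the coactivator of the fasting programme (log2FC 0.85, adjusted p = 0.00337). The Ppargc1a call ended with the PBS group left out (log2FC 0.52, adjusted p = 0.208) or the MCF10A/miR-122 EV group left out (0.55, adjusted p = 0.055). G6pc, the last enzyme of the pathway, had 218 to 1201 CPM (median 709.9) in the last 12, against 117 to 763 CPM (median 434) in the first 12 and lay at the threshold (log2FC 0.75 ± 0.27, adjusted p = 0.0485). It passed when PBS replicates 4, 5 or 6, MCF10A EV replicates 3 or 6, MCF10A/miR-122 EV replicates 5 or 6 or MDA-MB-231 EV replicate 4 was left out, and did not pass when any of the other 16 libraries was (log2FC 0.62 to 0.77). Creb3l3, a transcription factor gene of the fasting liver, was the one member that fell (-0.25, adjusted p = 0.00807), and it did not pass with PBS (-0.24, adjusted p = 0.0652) or MCF10A/miR-122 EV (-0.20, adjusted p = 0.0866) left out.

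Pfkfb3, a bifunctional enzyme gene that sets the level of an activator of glycolysis, had 14.7 to 27.1 CPM (median 19.8) in the last 12, against 3.6 to 11.9 CPM (median 5.59) in the first 12 (log2FC 1.70 ± 0.17, adjusted p = 1.22e-07), with no overlap. Pfkfb2, its paralog, had 35.3 to 101 CPM (median 65.3) in the last 12, against 27.3 to 58.2 CPM (median 34.8) in the first 12 (log2FC 0.84 ± 0.12, adjusted p = 2.59e-05). Over the 25 genes of glycolysis and glucose uptake, 4 rose and 3 fell (28% called), a share near the 24.7% of all genes. Of 23 insulin signalling genes 5 rose and none fell (21.7% called, again near it), with 2 higher when the PBS group was left out and 3 when the MCF10A/miR-122 EV group was. Those that rose include Irs1, an insulin receptor substrate (log2FC 0.35, adjusted p = 0.000862), and Ghr, the growth hormone receptor (log2FC 0.28, adjusted p = 0.000384). Gys1, the muscle-type glycogen synthase, fell at a low level (-0.47, adjusted p = 0.000244), with 1.69 to 2.67 CPM (median 1.99) in the last 12, against 2.181 to 3.51 CPM (median 2.93) in the first 12.

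**Figure D3:**
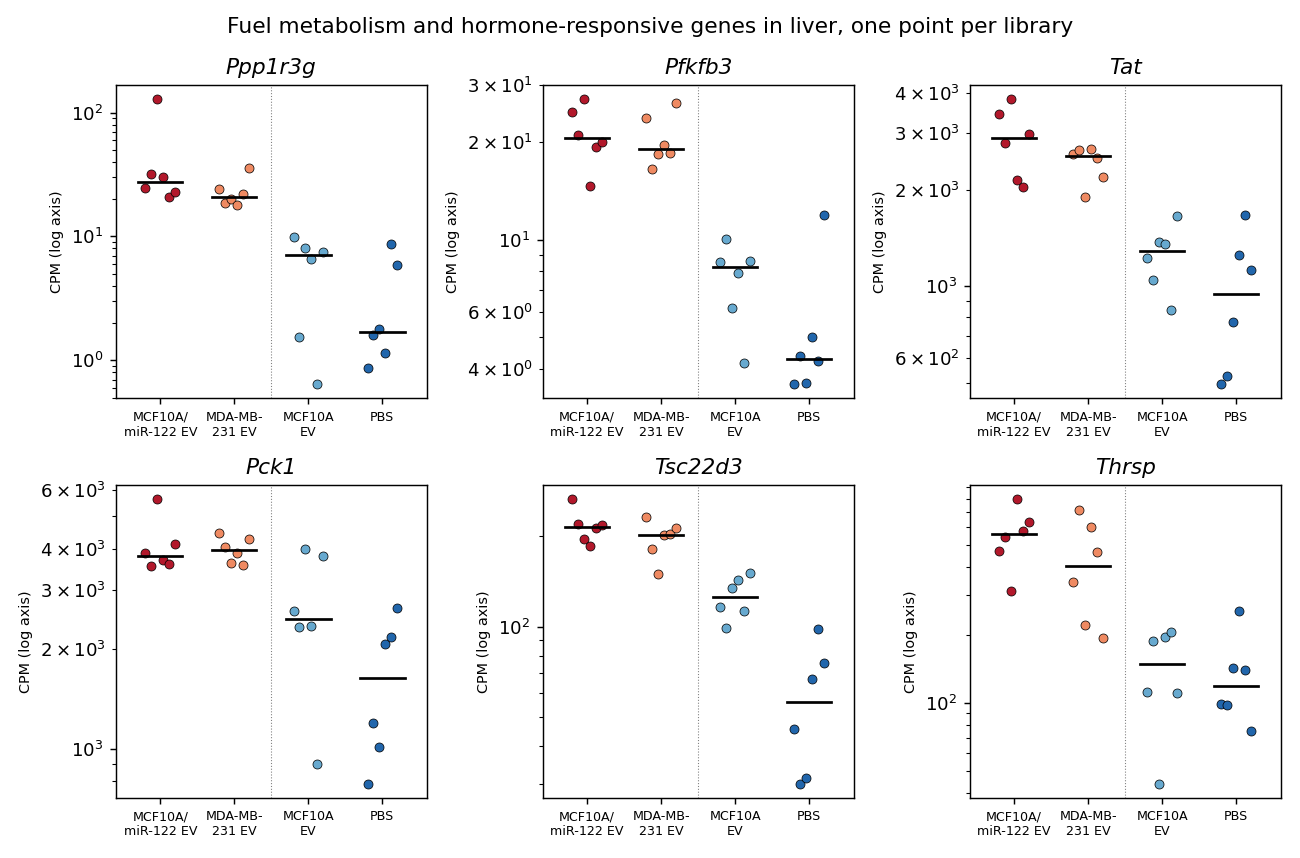
CPM on a log axis of 6 genes of fuel metabolism and hormone response in every library, with groups, points and bars as in the clock plot. Ppp1r3g, Pfkfb3 and Tat lie wholly higher in the last 12 libraries, while the sets overlap for Pck1 and Thrsp.

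Of 19 glucocorticoid-responsive genes 10 rose and 1 fell (57.9% called, beside 24.7% of all genes), with a median log2FC of 0.55. Tat, Pck1, Per1 and Lcn2 are also in other lists described here. Tsc22d3, which encodes the anti-inflammatory protein GILZ, had 150.0 to 266 CPM (median 208) in the last 12, against 30.1 to 151 CPM (median 98.8) in the first 12 (log2FC 1.27 ± 0.15, adjusted p = 1.13e-06), and no liver of the last 12 lay below the median of the first 12. MCF10A EV livers, at 99.2 to 151 CPM (median 125), were themselves above PBS livers, at 30.1 to 98.3 CPM (median 56.3) (adjusted p = 0.0135). Klf15, a transcription factor gene of amino acid breakdown and gluconeogenesis, had 216 to 313 CPM (median 245) in the last 12, against 85.3 to 213 CPM (median 142) in the first 12 (log2FC 0.80 ± 0.09, adjusted p = 1.13e-06), with no overlap. The list had 5 rises without the PBS group and 11 without the MCF10A EV group.

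Other genes that were higher with no overlap work in transport, mitochondria and transcription. Coq10b, a mitochondrial coenzyme Q binding protein gene, had 41.7 to 95.97 CPM (median 67.1) in the last 12, against 8.45 to 31.7 CPM (median 19.02) in the first 12 (log2FC 1.79 ± 0.17, adjusted p = 4.65e-08). Slc38a2, an amino acid transporter gene, had 185 to 436 CPM (median 226) in the last 12, against 70.7 to 179.9 CPM (median 107) in the first 12 (log2FC 1.11 ± 0.14, adjusted p = 5.02e-06). It was 1 of 7 rises among 20 amino acid transporters tested, with 1 fall (40% called, beside 24.7% of all genes, 11.5% higher). The count of rises was 4 with either the MCF10A EV or the MCF10A/miR-122 EV group left out. Maff, a small MAF transcription factor gene, had 7.57 to 35.4 CPM (median 11.3) in the last 12, against 1.7 to 7.14 CPM (median 4.24) in the first 12 (log2FC 1.54 ± 0.22, adjusted p = 2.28e-05). Ifrd1, a transcriptional coregulator gene, had 19.6 to 32.4 CPM (median 22.2) in the last 12, against 7.58 to 17.4 CPM (median 11.6) in the first 12 (log2FC 0.91 ± 0.12, adjusted p = 4.04e-06).

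Lipid genes were called in both directions. Of 23 lipogenesis genes 7 rose and 3 fell (43.5% called), and of 14 lipid droplet genes 1 rose and 4 fell (35.7% called), beside 11.5% higher and 13.2% lower over all genes. Thrsp, a thyroid hormone-responsive gene of fatty acid synthesis, had 194 to 798 CPM (median 507) in the last 12, against 44.1 to 254 CPM (median 126) in the first 12 (log2FC 1.81 ± 0.25, adjusted p = 1.38e-05). Lpin2, which makes diacylglycerol for triglycerides, had 307 to 733 CPM (median 459.6) in the last 12, against 165 to 354 CPM (median 235) in the first 12 (log2FC 0.95 ± 0.12, adjusted p = 3.19e-06). For both genes the sets overlapped, and each of the 4 group pairs passed the test. Plin2, a coat protein gene of lipid droplets, had 250.2 to 697 CPM (median 383) in the last 12, against 369 to 767 CPM (median 612) in the first 12 (log2FC -0.65 ± 0.13, adjusted p = 0.000508), and this fall rested on the MCF10A/miR-122 EV livers (log2FC -0.38, adjusted p = 0.124 with them left out). Cpt2, a mitochondrial carnitine palmitoyltransferase gene, had 116 to 159 CPM (median 128) in the last 12, against 145 to 187 CPM (median 166) in the first 12 (log2FC -0.37 ± 0.06, adjusted p = 6.95e-05). It was 1 of 4 falls among 36 genes of fatty acid oxidation, where 1 rose. The 13.9% called in that list is below the 24.7% of all genes.

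Of 40 detoxification genes 13 rose and 2 fell (37.5% called, beside 11.5% higher and 13.2% lower over all genes), and 7 were higher with the MCF10A/miR-122 EV group left out. Sult1d1, a sulfotransferase gene, had 120.1 to 198 CPM (median 152) in the last 12, against 91.4 to 134 CPM (median 114) in the first 12 (log2FC 0.47 ± 0.08, adjusted p = 6.4e-05). Cyp1a2, an aromatic compound-metabolising cytochrome P450, had 506 to 706 CPM (median 611) in the last 12, against 318 to 584 CPM (median 450.2) in the first 12 (log2FC 0.46 ± 0.08, adjusted p = 0.000275). Cyp2a5, another cytochrome P450 gene, had 715 to 2429 CPM (median 1437) in the last 12, against 196 to 1699 CPM (median 457) in the first 12 (log2FC 1.31 ± 0.18, adjusted p = 1.39e-05). It shares 53.5% of its 32-base words with other genes and differed between MCF10A EV and PBS livers as well (adjusted p = 0.0144), and without the MCF10A EV group its difference did not pass (0.62, adjusted p = 0.0625).

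Falls with no overlap outnumbered such rises, 103 to 25. Among falls with no overlap that could be matched to GENCODE M21 transcripts, 57 of 99 (57.6%) shared 10% or more of their 32-base words with another gene, against 24.5% of all genes tested and 4 of 24 (16.7%) of the rises with no overlap. Pseudogenes made up 15.7% of these falls and 1.28% of all genes tested. For such genes the counting of reads that map to several places, which the sources used here do not give, can change the value, and its part was not tested. With only the genes that share less than 10% kept, 62 genes had no overlap.

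Of 45 replication-dependent histone genes 43 were lower (beside 13.2% of all genes) and none higher, with a median log2FC of -0.82. Of these genes 43 share 10% or more of their words with another gene, 41 of them lower. Their RNAs end in a stem-loop and mostly lack the poly(A) tail that an mRNA library selects. Hist1h2ak had 0.267 to 0.959 CPM (median 0.587) in the last 12, against 4.83 to 7.65 CPM (median 5.84) in the first 12 (log2FC -3.29 ± 0.12, adjusted p = 4.28e-16), and Hist1h2af had 1.13 to 2.74 CPM (median 1.56) in the last 12, against 5.43 to 8.9 CPM (median 6.79) in the first 12 (log2FC -2.07 ± 0.11, adjusted p = 3.72e-13). Several neighbours had near-equal levels, and whether they were given the same reads was not tested. The mean was 3.26 CPM in the last 12 and 8.67 CPM in the first 12 for Hist1h2ab. It was 3.32 CPM and 8.72 CPM for Hist1h2ae, and 3.30 CPM and 8.71 CPM for Hist1h2ai. Hist1h2ao and Hist1h2ap had the same mean in the last 12, 6.69 CPM, and 17.6 and 17.5 CPM in the first 12. The 43 lower genes are therefore not read as 43 separate results. The 2 histone genes with little shared sequence, Hist2h2be and Hist1h1d, fell too. Of 45 histone genes, 27 passed as lower with the MCF10A EV group left out and 42 with the PBS group left out.

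Among genes with under 10% shared words and an average log2 CPM of at least 1, Serpina3a, a liver serine protease inhibitor gene, fell the most, with 0.285 to 5.85 CPM (median 0.783) in the last 12, against 109.6 to 325 CPM (median 154) in the first 12 (log2FC -6.43 ± 0.42, adjusted p = 3.62e-11). Serpina3b, a paralog, was read at 0.0331 to 0.177 CPM (median 0.081) in the last 12 and 0.653 to 20.9 CPM (median 1.37) in the first 12, and without PBS replicate 6, the highest library, the log2FC was -4.75 in place of -5.81. For both genes every library of the last 12 lay below every library of the first 12. A further 4 genes had at least 10 reads in each of the first 12 libraries and at most 1 read in any of the last 12. Ptcra, a gene of the pre-T-cell receptor, had 0 or 1 read in the last 12 libraries, 4 reads in all, and 47 to 143 reads in each of the first 12. Gm5779 had 2 reads over the last 12 libraries, against 39 to 63 in each of the first 12. Gm20594 and 4930447K03Rik had no read in the last 12, against 25 to 98 and 12 to 29 reads in each of the first 12. Taking 3 reads per library as the limit that a count of 0 allows, Gm20594 was at least 15.2-fold lower and 4930447K03Rik at least 6.24-fold lower in the last 12. NSG mice lack T cells, and the other lymphocyte markers summed with Ptcra to no more than 21.1 CPM in any liver.

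H2-T3, a non-classical class I histocompatibility gene, had 2.97 to 4.0 CPM (median 3.55) in the last 12, against 7.51 to 12.8 CPM (median 9.54) in the first 12 (log2FC -1.49 ± 0.08, adjusted p = 2.43e-13). Its paralog H2-T23 had 96.8 to 118 CPM (median 105) in the last 12, against 127 to 156 CPM (median 138) in the first 12 (log2FC -0.39 ± 0.04, adjusted p = 7.09e-07), and shares 25.1% of its words with other genes. The 35 genes with an H2 symbol that were tested included 15 that fell and 1 that rose, beside 13.2% lower and 11.5% higher over all genes. The part of shared sequence in this count was not tested. In the list of MHC presentation genes, 5 of 24 tested fell and 2 rose. That is 29.2% called, beside 24.7% of all genes, with a median log2FC of 0.05. Acta1, skeletal muscle actin, had 1.03 to 1.91 CPM (median 1.51) in the last 12, against 3.1 to 5.17 CPM (median 4.05) in the first 12 (log2FC -1.50 ± 0.10, adjusted p = 8.83e-11). It is 1 of 13 muscle markers, of which 2 were expressed enough to be tested and only Acta1 was called, and the markers' summed level was 1.64 to 2.43 CPM in MCF10A/miR-122 EV livers, 1.55 to 2.13 CPM in MDA-MB-231 EV livers, 3.82 to 5.47 CPM in MCF10A EV livers and 3.99 to 5.23 CPM in PBS livers. The part of muscle RNA in this fall was not tested. In bulk liver, fewer cells of a type and less RNA per cell cannot be told apart.

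**Figure D4:**
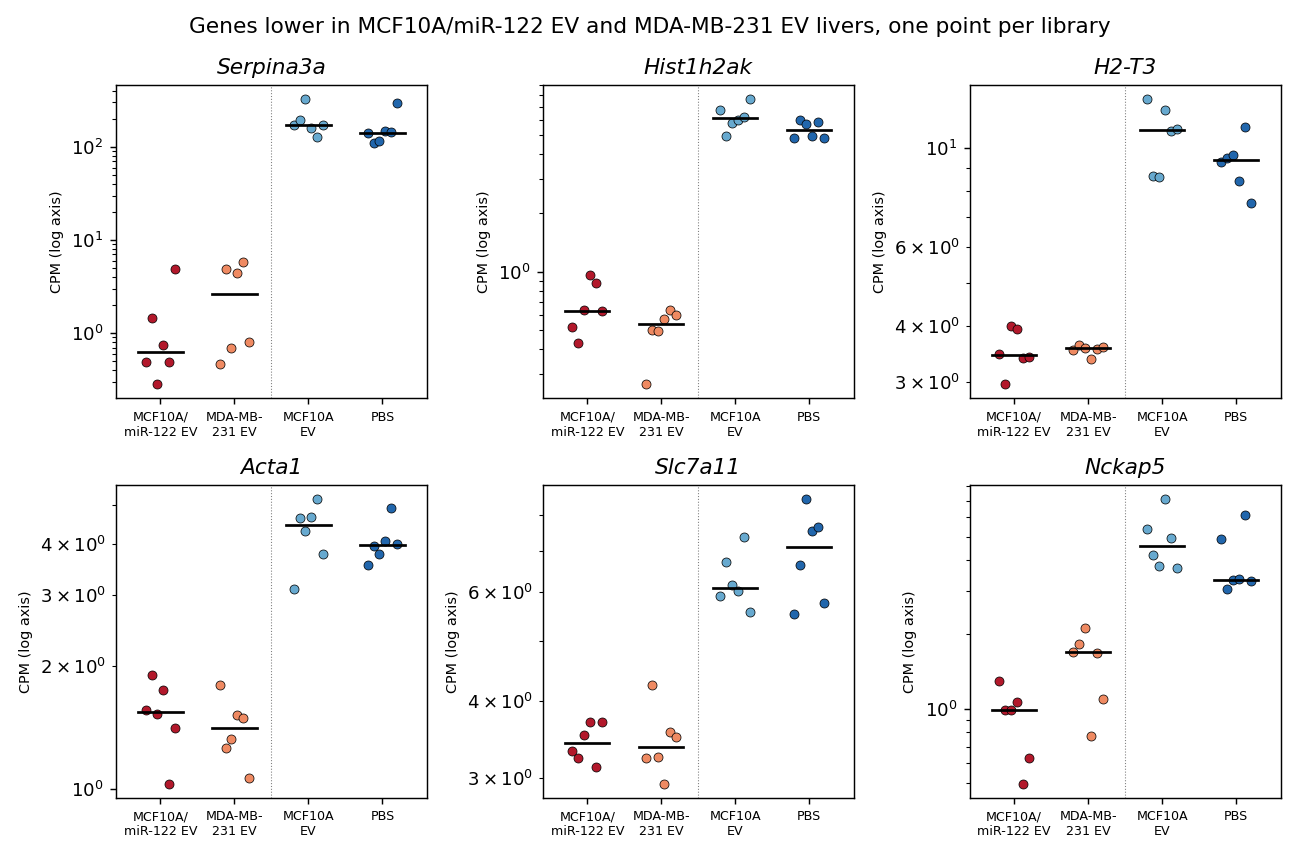
CPM on a log axis of 6 genes with no overlap that were lower in the last 12 libraries, with groups, points and bars as in the clock plot. Serpina3a lies at 0.285 to 5.85 CPM in the last 12 and at 109.6 to 325 CPM in the first 12.

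Further falls with no overlap came from several pathways. Nckap5, whose protein is little studied in liver, had 0.495 to 2.12 CPM (median 1.08) in the last 12, against 3.06 to 7.11 CPM (median 3.99) in the first 12 (log2FC -1.89 ± 0.17, adjusted p = 1.84e-08). Dnmt3b, a de novo DNA methyltransferase gene, had 1.22 to 2.36 CPM (median 1.71) in the last 12, against 2.86 to 8.58 CPM (median 5.28) in the first 12 (log2FC -1.66 ± 0.18, adjusted p = 5.66e-07), and shares 13.2% of its words with another gene. Slc7a11, the cystine transporter gene that feeds glutathione synthesis, had 2.94 to 4.25 CPM (median 3.4) in the last 12, against 5.54 to 8.51 CPM (median 6.41) in the first 12 (log2FC -0.94 ± 0.08, adjusted p = 2.85e-09). Stat5a, a transcription factor gene of growth hormone signalling, had 10.6 to 15.99 CPM (median 13.02) in the last 12, against 16.2 to 27.5 CPM (median 18.6) in the first 12 (log2FC -0.66 ± 0.10, adjusted p = 3.08e-05), and shares 12.1% of its words with another gene. In each of these 4 genes every liver of the last 12 was below every liver of the first 12. A pair of transcription factor genes of hepatocytes fell in all 4 group pairs while their sets overlapped: Foxa2, a pioneer factor, had 10.6 to 27.8 CPM (median 18.5) in the last 12, against 24.3 to 57.00 CPM (median 32.8) in the first 12 (log2FC -0.87 ± 0.13, adjusted p = 3.76e-05), and Atf5, a factor of the mitochondrial stress response, had 195 to 299 CPM (median 242) in the last 12, against 284 to 425 CPM (median 367) in the first 12 (log2FC -0.59 ± 0.08, adjusted p = 4.49e-06). AV051173, a transcript of no known role, had 0.635 to 1.05 CPM (median 0.883) in the last 12, against 3.27 to 4.62 CPM (median 4.02) in the first 12 (log2FC -2.24 ± 0.10, adjusted p = 6.8e-15).

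Among 51 interferon-stimulated genes, 17 were lower and 1 higher (35.3% called, beside 13.2% lower and 11.5% higher over all genes), with a median log2FC of -0.19. Irgm2, an interferon-inducible GTPase gene, had 25.4 to 41.9 CPM (median 36.2) in the last 12, against 40.04 to 82.8 CPM (median 59.3) in the first 12 (log2FC -0.74 ± 0.12, adjusted p = 5.58e-05), and shares 10.6% of its words with another gene. Tap1, a gene of class I peptide presentation, had 9.2 to 14.8 CPM (median 12.3) in the last 12, against 13.5 to 26.95 CPM (median 18.4) in the first 12 (log2FC -0.63 ± 0.10, adjusted p = 7.37e-05). The count of falls was 9 with the PBS group left out, 19 with the MCF10A EV group left out, 7 with the MCF10A/miR-122 EV group left out, 10 with PBS replicates 3 and 5 left out and 9 with only genes of under 10% shared sequence kept. That last setting drops members of the list, Irgm2 among them. Over all genes it left 1247 falls in place of 1822.

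Of 41 reported targets of miR-122 tested, 4 fell and 4 rose, a share of 19.5% called beside 24.7% of all genes, with a median log2FC of 0.04. In all 4 group pairs 3 were lower and none higher, beside 2.13% and 1.01% of all genes. Aldoa, the classic marker target, had 39.02 to 73.7 CPM (median 52.9) in the last 12, against 37.7 to 59.7 CPM (median 47.6) in the first 12 (log2FC 0.13 ± 0.09, adjusted p = 0.322). Slc7a1 (-0.18, adjusted p = 0.558), Ccng1 (0.07, adjusted p = 0.277), Ndrg3 (0.12, adjusted p = 0.312) and Pkm2 (-0.14, adjusted p = 0.333), given as log2FC values, did not pass the test either. A p above the threshold does not show that their levels were equal.

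The targets that fell were Bckdk, Smarcd1, Gys1 and Hfe2. Bckdk, a kinase gene that restrains branched-chain amino acid breakdown, had 4.9 to 7.58 CPM (median 6.38) in the last 12, against 6.89 to 10.1 CPM (median 9.41) in the first 12 (log2FC -0.53 ± 0.07, adjusted p = 1.36e-05). Smarcd1, a chromatin remodelling subunit gene, had 3.38 to 4.4 CPM (median 3.78) in the last 12, against 4.5 to 7.62 CPM (median 5.75) in the first 12 (log2FC -0.61 ± 0.09, adjusted p = 2.22e-05), with no overlap. Hfe2, the hemojuvelin gene that induces hepcidin, had 19.2 to 48.8 CPM (median 30.9) in the last 12, against 40.2 to 84.9 CPM (median 60.4) in the first 12 (log2FC -0.96 ± 0.14, adjusted p = 2.27e-05). P4ha1, a collagen prolyl hydroxylase subunit gene, was among the targets that rose (0.88, adjusted p = 0.00125), and did not pass with the PBS group left out (0.46, adjusted p = 0.169).

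Of 40 acute phase genes tested, 12 rose and 4 fell (40% called), beside 24.7% called, 11.5% higher and 13.2% lower over all genes. With the MCF10A/miR-122 EV group left out 4 were higher and 3 lower, and with the PBS group left out 6 were higher and 9 lower, so the balance depended on both. Saa1, serum amyloid A, had 339 to 824 CPM (median 552) in MCF10A/miR-122 EV livers, 23.2 to 80.6 CPM (median 33.04) in MDA-MB-231 EV livers, 25.4 to 53.7 CPM (median 37.3) in MCF10A EV livers and 16.2 to 49.9 CPM (median 24.1) in PBS livers. Saa3, a form made by macrophages and hepatocytes in inflammation, had 25.7 to 112 CPM (median 61.01) in MCF10A/miR-122 EV livers, 2.8 to 5.23 CPM (median 4.13) in MDA-MB-231 EV livers, 2.79 to 4.82 CPM (median 3.78) in MCF10A EV livers and 3.42 to 5.75 CPM (median 3.88) in PBS livers. Every MCF10A/miR-122 EV liver was above every other liver for both genes, and the log2FC against MDA-MB-231 EV livers was 3.87 for Saa1 (adjusted p = 3.21e-08) and 4.04 for Saa3 (adjusted p = 9.75e-10). With MCF10A/miR-122 EV left out neither differed from the first 12 libraries (0.24, adjusted p = 0.564 and 0.04, adjusted p = 0.898). Which EVs this group received is the point on which titles and library names disagree.

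Lcn2, the siderophore-binding protein lipocalin, had 22.96 to 50.7 CPM (median 29.1) in MCF10A/miR-122 EV livers, 8.41 to 20.2 CPM (median 10.1) in MDA-MB-231 EV livers, 14.5 to 24.7 CPM (median 21.8) in MCF10A EV livers and 5.94 to 12.1 CPM (median 8.27) in PBS livers. It differed within both sets, between the MCF10A/miR-122 and MDA-MB-231 EV livers (adjusted p = 0.00122) and between MCF10A EV and PBS (adjusted p = 0.0131). Over 12 against 12 livers its log2FC was 0.55, adjusted p = 0.0121, and with the PBS or the MCF10A/miR-122 EV group left out it turned to -0.055 and -0.20, neither past the test. Cyp8b1, which sets the share of cholic acid among bile acids, had 20.3 to 69.97 CPM (median 58.5) in MCF10A/miR-122 EV livers, 85.9 to 157 CPM (median 121) in MDA-MB-231 EV livers, 116 to 221 CPM (median 156) in MCF10A EV livers and 90.97 to 213 CPM (median 163) in PBS livers. Its 12 against 12 difference (log2FC -1.04, adjusted p = 0.00021) did not pass with the MCF10A/miR-122 EV group left out (-0.38, adjusted p = 0.169).

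**Figure D5:**
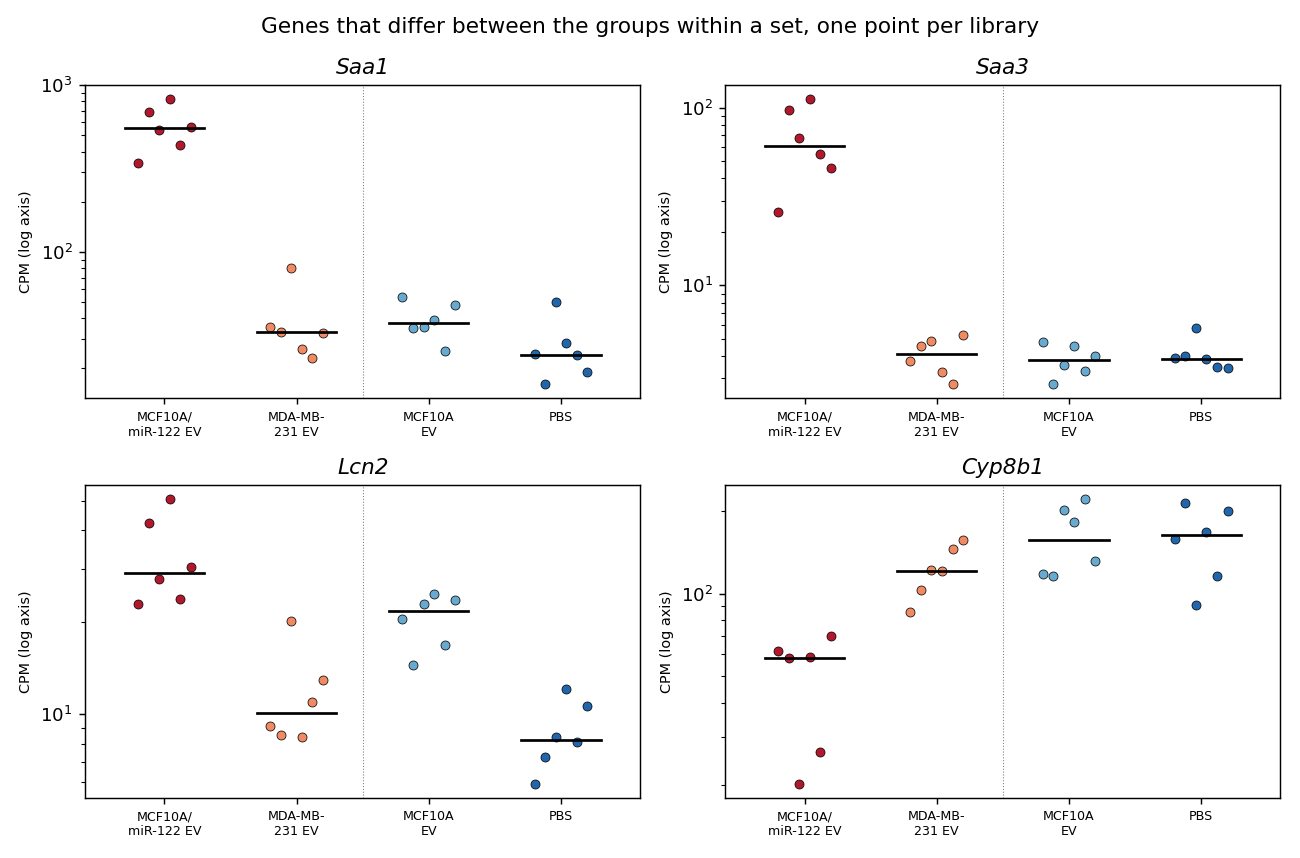
CPM on a log axis of 4 genes whose levels differ between MCF10A/miR-122 and MDA-MB-231 EV livers, with groups, points and bars as in the clock plot. Saa1 and Saa3 are high in the MCF10A/miR-122 EV livers alone, and Cyp8b1 is lowest there.

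Of 21 Kupffer cell and macrophage markers 9 rose and none fell (42.9% called, median log2FC 0.24), beside 24.7% called and 11.5% higher over all genes. Their summed level was 427 to 963 CPM in MCF10A/miR-122 EV livers and 361 to 533 CPM in MDA-MB-231 EV livers. It was 385 to 494 CPM in MCF10A EV livers and 421 to 528 CPM in PBS livers. The count of rises was 1 with the MCF10A/miR-122 EV group left out, 15 with the MDA-MB-231 EV group left out, 1 with the MCF10A EV group left out and 3 with the PBS group left out. Timd4, a receptor gene of resident Kupffer cells, had 2.74 to 8.4 CPM (median 4.62) in the last 12, against 2.39 to 4.42 CPM (median 2.99) in the first 12 (log2FC 0.58 ± 0.13, adjusted p = 0.00207), and Aif1, a macrophage actin-binding protein gene, had 2.22 to 6.57 CPM (median 3.52) in the last 12, against 1.64 to 3.35 CPM (median 2.51) in the first 12 (log2FC 0.57 ± 0.13, adjusted p = 0.00271). The call of Timd4 ended with the MCF10A EV group left out (0.43, adjusted p = 0.0872), and that of Aif1 with either the MCF10A EV (0.47, adjusted p = 0.06) or the MCF10A/miR-122 EV group left out (0.31, adjusted p = 0.174). The part of macrophage number in the acute phase values was not tested. Neutrophil markers summed to 25.2 to 52.7 CPM in MCF10A/miR-122 EV livers, 10.5 to 22.4 CPM in MDA-MB-231 EV livers, 16.4 to 34.0 CPM in MCF10A EV livers and 8.42 to 15.5 CPM in PBS livers. Lcn2 made up most of that sum, and of the 5 markers tested it was the only one that rose. S100a8 and S100a9, calprotectin subunit genes, fell (log2FC -1.50, adjusted p = 0.0336 and -1.14, adjusted p = 0.0369), and Csf3r and Cxcr2 did not pass. Both falls lay near the threshold. The S100a8 call ended without any one of MDA-MB-231 EV replicates 2, 3 and 4, MCF10A EV replicates 4 and 5 and PBS replicate 3, and with limma-voom (adjusted p = 0.267). That of S100a9 ended without any one of MCF10A/miR-122 EV replicates 1, 4 and 6, MDA-MB-231 EV replicates 1, 3 and 4, MCF10A EV replicates 4, 5 and 6 and PBS replicates 3 and 4, and with limma-voom (adjusted p = 0.179).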

How the data were processed

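Liver RNA of 24 mice was sequenced, 6 libraries per treatment label. Per the labels' protocols, TRIZOL was used for extraction and a stranded mRNA kit for the libraries. The authors deposited raw read counts by gene symbol in 1 table, all whole numbers. The submitters' processing notes name bcl2fastq 2.18.0.12, TopHat2 and the mm9 build. How reads were counted (tool, annotation, strand, several matches) is not given in the sources used here. Overlapping genes, antisense partners and genes with near-identical copies may therefore share reads. The 27 rows that share 11 symbols (0.0744% of counts) were left out. Each library is taken as 1 mouse, which the labels do not state; otherwise p-values would measure technical spread only.

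The main test was edgeR's quasi-likelihood F test (version 4.0.16, R 4.3.3) with 1 mean per group after filterByExpr and TMM scaling, over all 24 libraries, two-sided, Benjamini-Hochberg adjustment over 13773 genes and a threshold of 0.05. The main contrast is the mean of the MCF10A/miR-122 and MDA-MB-231 EV groups minus the mean of MCF10A EV and PBS. The scripts were tested on simulated data. CPM are read counts scaled to a common TMM-adjusted library size. They are not divided by gene length, so levels are not compared between genes. Total counts were 21.3 to 33.7 M (mega) per library, and the common coefficient of variation was 16.8%.

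Genes are named by a rule: the 10 largest rises and 10 largest falls called in all 4 group pairs with no overlap, at least 1 in average log2 CPM and no predicted locus; the 2 smallest p of each list; genes with at least 10 reads in every library of one set and at most 3 in the other; 8 miR-122 targets; and the gluconeogenesis and core clock lists. The text prints a selection made after values were seen, and some genes the rule names are not reported here. The members and lists were chosen with earlier results of these data known, so no list is independent evidence. Shared sequence is the percent of 32-base words of GENCODE M21 transcripts found in another gene, with a value for 98.6% of genes. Promoters come from RefSeq (GRCm38.p6) and were found for 78.5% of genes. No coordinates of the deposited counts are given, since their build differs. Same-numbered libraries of different groups had a median correlation of 0.03 after group means were removed, over 0.1 in 13 of 36 pairs. Libraries of other numbers had a median of -0.03, over 0.1 in 46 of 180 pairs. The difference was not tested and cannot show whether replicate numbers pair mice, so the main test did not pair them. No libraries of a group agreed within sampling noise (smallest chi-square per degree of freedom 14.8). Alternatives were DESeq2 1.42.0, limma-voom 3.58.1, other scaling, filters, fits and depth, and omission of libraries and groups. Those that keep only genes with little shared sequence, or leave out PBS replicates 3 and 5, were added after seeing the data.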

Additional observations from a re-analysis of the deposited data

Results flagged for a closer look

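For 26 values a single library stood far from the rest of its group of 6, with a gap to its nearest neighbour, as a share of the range of log2 CPM, above the Dixon limit for 6 values; chance alone marks about 1 group in 20, and 324 groups were looked at. In MDA-MB-231 EV replicate 5, Nr1d1 was at 115 CPM (137 to 150.0 CPM in the rest of the group) and Lpin2 was at 357 CPM (451 to 508 CPM in the rest of the group). In MCF10A/miR-122 EV replicate 3, Nr1d2 was at 140.2 CPM (107 to 118 CPM in the rest of the group), Pck1 was at 5647 CPM (3539.8 to 4144 CPM in the rest of the group) and Ppp1r3g was at 128 CPM (20.7 to 31.9 CPM in the rest of the group). In MCF10A/miR-122 EV replicate 3, Ghr was at 389 CPM (477 to 502 CPM in the rest of the group). In MCF10A EV replicate 4, Nr1d2 was at 31.8 CPM (54.4 to 72.4 CPM in the rest of the group). In MDA-MB-231 EV replicate 4, Dbp was at 127 CPM (79.7 to 90.5 CPM in the rest of the group). In PBS replicate 5, Dbp was at 3.57 CPM (39.04 to 118 CPM in the rest of the group), Ppargc1a was at 12.2 CPM (7.45 to 8.62 CPM in the rest of the group) and Gm20594 was at 4.27 CPM (0.864 to 1.49 CPM in the rest of the group). In PBS replicate 5, P4ha1 was at 20.9 CPM (8.14 to 11.5 CPM in the rest of the group). In MCF10A EV replicate 5, Pck1 was at 898 CPM (2331 to 3981 CPM in the rest of the group). In PBS replicate 6, Pfkfb3 was at 11.9 CPM (3.6 to 5.00 CPM in the rest of the group), Pfkfb2 was at 41.04 CPM (27.3 to 31.01 CPM in the rest of the group) and Serpina3a was at 298 CPM (109.6 to 149 CPM in the rest of the group). In PBS replicate 6, Serpina3b was at 20.9 CPM (0.653 to 1.3 CPM in the rest of the group). In MDA-MB-231 EV replicate 3, Irs1 was at 58.3 CPM (40.7 to 44.4 CPM in the rest of the group), Gm5779 was at 0.0331 CPM (0 to 0 CPM in the rest of the group) and Saa1 was at 80.6 CPM (23.2 to 35.3 CPM in the rest of the group). In MDA-MB-231 EV replicate 6, Ifrd1 was at 29.2 CPM (19.6 to 20.7 CPM in the rest of the group). In MDA-MB-231 EV replicate 1, Hist1h2ak was at 0.267 CPM (0.497 to 0.636 CPM in the rest of the group). In MCF10A/miR-122 EV replicate 5, Hist1h2af was at 2.74 CPM (1.51 to 1.68 CPM in the rest of the group), Hist1h2ab was at 5.22 CPM (2.96 to 3.62 CPM in the rest of the group) and Gm5779 was at 0.0381 CPM (0 to 0 CPM in the rest of the group). In PBS replicate 3, Saa3 was at 5.75 CPM (3.42 to 3.99 CPM in the rest of the group). The 2 values of Gm5779 are 1 read each beside libraries with none.

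The difference between the MCF10A/miR-122 and MDA-MB-231 EV livers itself passed the test for 4 of the genes described. The log2 fold change, MCF10A/miR-122 EV over MDA-MB-231 EV, was -1.31 for Cyp8b1 (adjusted p = 0.0214), 3.87 for Saa1 (adjusted p = 3.21e-08), 4.04 for Saa3 (adjusted p = 9.75e-10), 1.49 for Lcn2 (adjusted p = 0.00122). What sets these groups apart was not tested.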

How the results depend on the processing

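With the replicate number as a block, 3467 genes were called, 485 of them in all 4 pairs. The block thus moved no count over all genes by over 1.5 times. Whether the numbers pair mice is not known. Other settings were RLE scaling (3387), DESeq2 (3640), limma-voom (3325), no filter (3195) and a filter of 1 CPM in 12 libraries (3220). A fit with 1 mean per set (3232), counts thinned to the smallest total (3177) and omission of PBS replicates 3 and 5 (3120) were also run. All of these kept the counts over all genes within 1.5 times. Counts over single lists could move more, as for interferon-stimulated genes with PBS replicates 3 and 5 left out. Omission of single libraries gave 3032 to 3558 genes, 1383 to 1684 higher and 1643 to 1874 lower, 308 to 472 in all 4 pairs and 132 to 161 with no overlap. No overlap is easier to meet with a library less, so its range is no check of stability. With the PBS group left out, 2124 genes were called, 1002 higher and 1122 lower, and 351 had no overlap. With MCF10A/miR-122 EV left out, these were 1954, 919, 1035 and 252. No overlap was met by 375 genes without MCF10A EV and 338 without MDA-MB-231 EV; these fits hold fewer libraries, and all 4 pairs could not be formed. Among genes with under 10% shared words, 272 passed in all 4 pairs and 62 had no overlap.

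Of 82 genes with printed values 75 were called, 71 of these in every single-library omission and 54 under every other setting. Log2 fold changes turned round for Cry1 (-0.21 without PBS, -0.25 without MCF10A/miR-122 EV), Lcn2 (-0.055 and -0.20 under the same omissions), Ccng1 (-0.028 without MCF10A EV) and Nr1d1 (-0.075 without MDA-MB-231 EV); of these, only Lcn2 was called over all 24 libraries. The cause was not tested. Depth limits genes near 0 reads most.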

Other observations

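None of 69 oxidative phosphorylation genes was called, with log2FC values of -0.22 to 0.18. Of 74 ribosomal protein genes 7 fell (9.46% called, beside 24.7% of all genes), with 2 to 11 lower when a group was left out, and of 31 proteasome genes 6 fell and 1 rose (22.6% called). Rpl34, a large-subunit ribosomal protein gene with 10.2% shared words, had 18.6 to 27.3 CPM (median 22.2) in the last 12, against 27.5 to 38.3 CPM (median 31.9) in the first 12 (log2FC -0.49 ± 0.06, adjusted p = 1.53e-06). Psma3, a proteasome subunit gene with 19.7% shared words, had 28.9 to 35.2 CPM (median 31.97) in the last 12, against 37.2 to 50.5 CPM (median 41.8) in the first 12 (log2FC -0.38 ± 0.05, adjusted p = 1.41e-06). In both genes the sets did not overlap. Of 42 complement and coagulation genes 9 rose and 1 fell, and the 23.8% called is near the 24.7% of all genes. That count was 2 higher and 2 lower without PBS and 13 higher and none lower without MCF10A EV. Of 23 cholesterol genes 2 rose and 1 fell (13% called), and of 20 iron genes 2 fell (10% called).

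Of 29 genes of the unfolded protein and integrated stress responses, 4 rose and 5 fell (31% called, beside 24.7% of all genes). The direction depended on the control group: 1 was higher and 11 lower without PBS, and 5 were higher and 1 lower without MCF10A EV. Herpud1, a gene of protein disposal at the endoplasmic reticulum, had 455 to 666 CPM (median 520.4) in the last 12, against 174 to 457 CPM (median 265) in the first 12 (log2FC 0.97 ± 0.11, adjusted p = 6.18e-07). Among 22 p53 targets 4 rose and 5 fell (40.9% called), and Trp53inp1, a stress-induced p53 cofactor gene, had 76.5 to 198 CPM (median 121) in the last 12, against 45.4 to 82.5 CPM (median 69.3) in the first 12 (log2FC 0.87 ± 0.13, adjusted p = 3.76e-05). In both genes the highest of the first libraries reached the lowest of the last. Cyp2e1, a hepatocyte marker and cytochrome P450 gene, had 5372 to 8382 CPM (median 6721) in the last 12, against 3170.3 to 7258 CPM (median 5450.2) in the first 12 (log2FC 0.38 ± 0.11, adjusted p = 0.0148). Its call ended with the PBS, the MCF10A/miR-122 EV or the MDA-MB-231 EV group left out.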
